A study of Mus musculus with 12 samples.

Results

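NRF2, the transcription factor encoded by Nfe2l2, and 9 of its textbook target genes are described here across mouse neural cells lacking p53, with and without oncogenic HRas. The members are Nfe2l2, Nqo1, Hmox1, Gclm, Gclc, Gsr, Txnrd1, Srxn1, Slc7a11 and Akr1b8, and every probe set that carries one of these as its only symbol was taken. That gave 20 probe sets of the 34945 with a single symbol, for 10 of 18193 genes. All 10 genes passed the filter on low signals that left 12835 genes for testing, and 19 of their 20 probe sets passed it.

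The 12 arrays of the series fall into 6 groups of 2. NSCL61, OPCL61 and ASTL61 are lines made by electroporating cells with a plasmid that carries HRasL61 and EGFP together with a plasmid for neomycin resistance, keeping them in 0.5 mg/ml neomycin and sorting GFP-positive cells. NSC, OPC and AST are their parents: neural stem cells of embryonic day 14.5 telencephalon grown as spheres without serum, oligodendrocyte precursor cells immunopanned after induction from those stem cells by PDGFAA and bFGF in 0.25% serum, and astrocytes induced from them in 10% serum. All 6 groups are p53-/- cells of the BL6 strain, so the parents carry the deletion too. Group names follow the labels. The markers of NSC did not match theirs, and astrocyte markers did not set AST apart, as given below. The stem cell medium held N-acetylcysteine at 60 µg/ml, itself an antioxidant and a source of cysteine. It is not named in the media given for OPC and AST, and the media of the lines are not given, so medium and cell type cannot be told apart. No parent taken through electroporation, neomycin and sorting was analysed here, so HRasL61 and those steps cannot be told apart either. Whether the 2 arrays of a group came from separate cultures or clones is not stated, and p-values measure only the spread between arrays.

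NRF2 is held low in unstressed cells by KEAP1, an adaptor that hands it to a CUL3 ubiquitin ligase. When KEAP1 is modified by oxidants or electrophiles, NRF2 accumulates, pairs with small MAF proteins and binds antioxidant response elements in the promoters and enhancers of its targets. Those targets import cystine, make and recycle glutathione, reduce thioredoxin and peroxiredoxins, break down haem and reduce quinones and aldehydes. Nfe2l2 itself is among the genes with such elements, and oncogenic Ras is known from mouse fibroblasts to raise its transcript. NRF2 activity is set mainly at the level of the protein, which arrays do not measure.

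Promoters of 5 members whose signal was higher in OPCL61 than in OPC by the main test are shown to place them beside the element NRF2 binds. RefSeq windows of 250 bases before to 50 after the gene start, on GRCm38.p6, were found for 7 of the 10 members in 9 windows. None was found for Hmox1 and Gsr, which were also higher in OPCL61, or for Gclc. The element's core was searched as TGACNNNGC and the AP-1 site as TGACTCA, on both strands. Each window runs 5′ to 3′ in the direction of its gene, and capitals mark a match, which reads as the reverse complement where the match lies on the opposite strand. The windows lie at chr2:75704614-75704913 (minus strand), chr2:152105274-152105573 (plus strand), chr3:122245307-122245606 (plus strand), chr3:50443564-50443863 (minus strand) and chr6:34353896-34354195 (plus strand).
Nfe2l2: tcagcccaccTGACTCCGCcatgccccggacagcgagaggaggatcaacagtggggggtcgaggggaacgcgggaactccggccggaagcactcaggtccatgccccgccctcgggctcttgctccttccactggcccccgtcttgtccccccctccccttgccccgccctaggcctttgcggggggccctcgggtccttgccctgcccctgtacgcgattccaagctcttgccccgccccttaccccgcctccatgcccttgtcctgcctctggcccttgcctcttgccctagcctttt
Srxn1: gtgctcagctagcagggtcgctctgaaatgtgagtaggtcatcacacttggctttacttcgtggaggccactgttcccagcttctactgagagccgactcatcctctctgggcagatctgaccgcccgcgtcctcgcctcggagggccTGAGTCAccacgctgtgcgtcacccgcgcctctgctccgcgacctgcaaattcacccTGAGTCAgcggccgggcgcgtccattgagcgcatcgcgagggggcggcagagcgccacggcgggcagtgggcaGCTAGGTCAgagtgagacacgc
Gclm: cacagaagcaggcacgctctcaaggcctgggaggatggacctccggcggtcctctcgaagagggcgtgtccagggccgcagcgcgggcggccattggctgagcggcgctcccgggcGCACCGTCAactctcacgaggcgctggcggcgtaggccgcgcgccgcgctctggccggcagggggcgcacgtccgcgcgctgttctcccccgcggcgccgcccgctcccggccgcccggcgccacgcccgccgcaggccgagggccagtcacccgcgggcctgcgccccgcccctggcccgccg
Slc7a11: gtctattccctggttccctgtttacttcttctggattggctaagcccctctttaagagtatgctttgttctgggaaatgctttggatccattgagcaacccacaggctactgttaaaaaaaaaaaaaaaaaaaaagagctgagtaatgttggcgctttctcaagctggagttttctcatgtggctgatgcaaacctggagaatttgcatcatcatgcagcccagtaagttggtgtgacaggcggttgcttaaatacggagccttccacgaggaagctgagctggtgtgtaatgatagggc
Akr1b8: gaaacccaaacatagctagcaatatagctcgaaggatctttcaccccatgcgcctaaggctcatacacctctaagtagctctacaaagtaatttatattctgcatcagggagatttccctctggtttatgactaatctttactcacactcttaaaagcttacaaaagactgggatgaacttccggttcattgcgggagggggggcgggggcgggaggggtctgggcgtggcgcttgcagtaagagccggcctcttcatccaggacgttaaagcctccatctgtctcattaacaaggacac

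The Nfe2l2 window holds TGACTCCGC, whose first base lies 240 bases before the start. Gclm holds TGACGGTGC on the opposite strand, 134 bases before the start, and Srxn1 holds TGACCTAGC on the opposite strand, 28 bases after it. The Srxn1 window also holds 2 AP-1 sites, 102 and 45 bases before the start. Slc7a11 and Akr1b8, the member with the widest range of signal, have neither sequence in these windows. One of 3 Txnrd1 windows holds TGACAAAGC, 92 bases before its start. In all, 4 of the 7 members hold the core, against 12.4% of the 32851 mouse windows and 14% of genes, and 1 of 7 holds the AP-1 site, against 5.2% of windows and 5.95% of genes. No match of one searched pattern overlapped a match of the other, and other forms of either element were not searched. These are matches of letters, not measured binding.

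Signals are the authors' log2 values per probe set, and each gene is given by its brightest single-symbol probe set on average over all arrays. Values of single arrays are given in the order of replicate 1 and replicate 2. Array medians lay between 5.157 and 5.211, and a signal under 5.183, the median of all values, may be background. Signals of different genes are not set against each other, since probe sets differ in brightness. A change is the difference of group means on the log2 scale ± the standard error (SE) from limma's linear model of the 6 groups, and a gene passed the test where its p-value, adjusted over all 12835 genes, was under 0.05. In these bulk samples fewer cells of a type and less RNA per cell cannot be told apart.

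OPCL61 against OPC sets an HRasL61 line beside the parent labelled oligodendrocyte precursor cells. Most precursor markers were lower in that line, as given below. Of the 10 genes, 7 rose and 0 fell: Nfe2l2, Akr1b8, Srxn1, Hmox1, Slc7a11, Gsr and Gclm. Of all genes tested 48.5% passed in either direction and 24.5% rose, and the 7 of 10 is above both shares. The members were chosen with earlier results of these data known, so this excess is descriptive and not independent evidence. The count also depends on the processing. Gclm was at 0.07 by the mean of its probe sets (limma, adjusted p = 0.801). Slc7a11 did not pass with array weights (1.34, adjusted p = 0.0747). The median change of the 10 was 1.17, against 0.05 over all genes. Arrays of OPCL61 lay above those of OPC for 10 of 10, a pattern found in 40.2% of all genes, and the other 3 genes did not pass the test.

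NSCL61 against NSC does the same for the parent labelled neural stem cells, which did not carry the marker profile of that label. Akr1b8 and Gsr rose and Hmox1 fell, 3 of 10 where 37.8% of all genes passed. The median change was 0.18, against 0.04 over all genes. Arrays did not overlap for 5 of 10, against 73.0% of all genes. The share that changed is therefore no larger than the background.

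ASTL61 against AST gave 0 of 10 genes past the test in limma, with 0 at an unadjusted p under 0.05. Only 3 of all genes passed in this comparison, 0.0234%. The median change of the 10 was 0.16, against 0.00132 over all genes. Arrays did not overlap for 6 of 10, against 38.6% of all genes. The largest differences were in Nqo1, 1.00, and Slc7a11, 0.94, and both rest on ASTL61 replicate 2. Without it they were 0.28 and 0.35, and without ASTL61 replicate 1 they were 1.72 and 1.52.

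**Figure D1:**
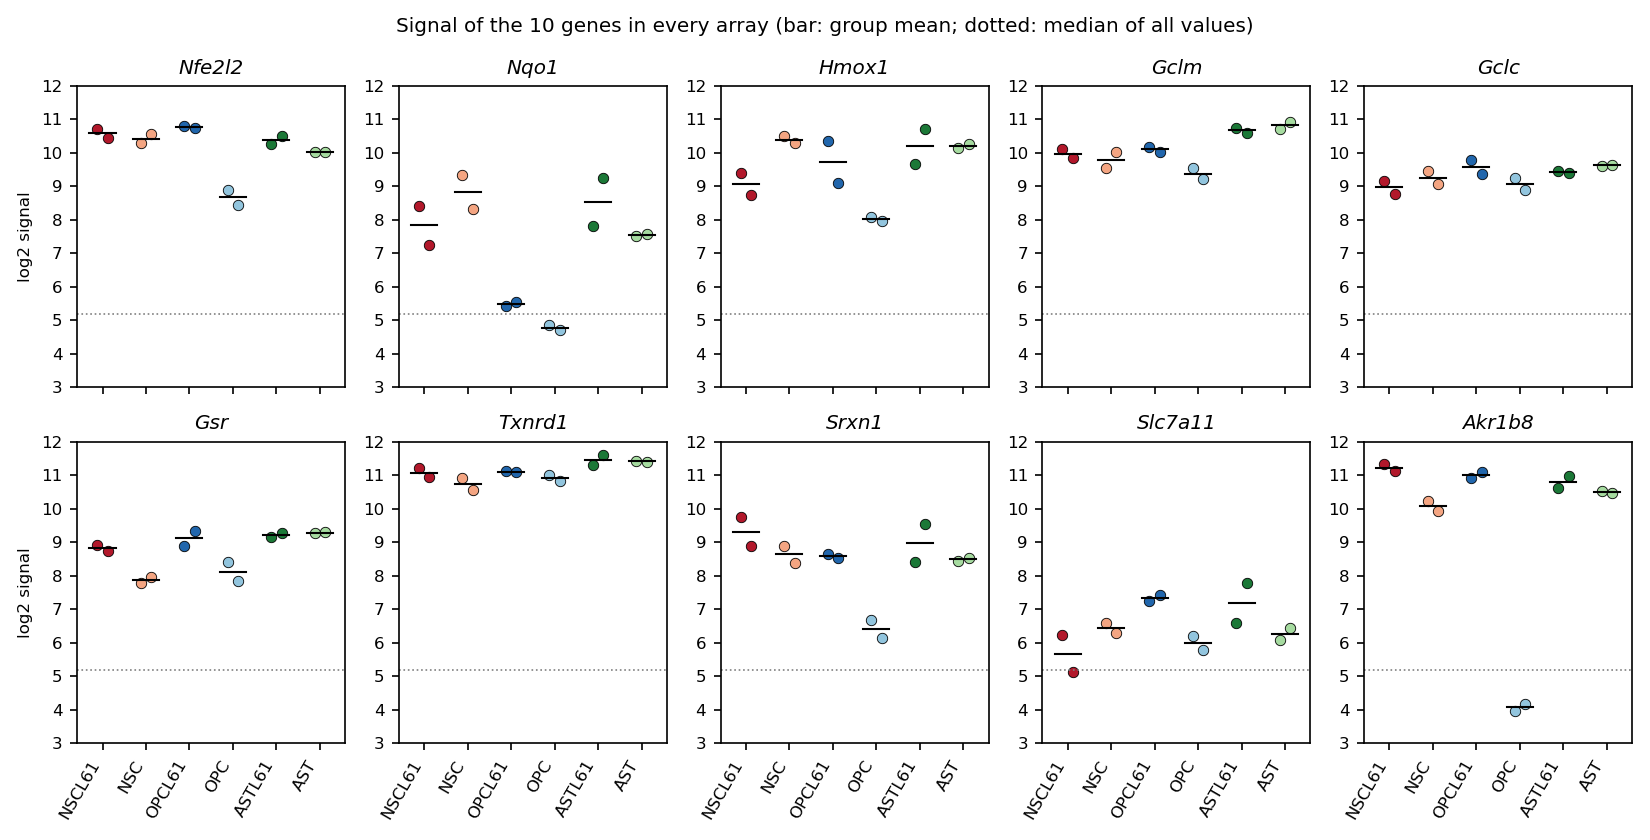
Log2 signal (vertical axis) of each of the 10 genes in the 12 arrays, with each HRasL61 line left of its parent. Points are arrays, bars are means of 2 arrays, and the dotted line is the median of all values, 5.183. OPC stands lowest for Nfe2l2, Nqo1, Hmox1, Gclm (by the probe set shown), Srxn1 and Akr1b8.

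Nfe2l2 encodes NRF2. Its signal (probe set 1416543_at) was 10.81 and 10.74 in OPCL61, against 8.89 and 8.46 in OPC. It was 10.73 and 10.45 in NSCL61, against 10.29 and 10.56 in NSC, and 10.27 and 10.52 in ASTL61, against 10.04 and 10.03 in AST. OPC alone lay low: its arrays were at least 1 log2 unit under every other array, and the other 5 groups lay close together. Nfe2l2 rose by 2.10 ± 0.17 in OPCL61, a 4.29-fold difference (limma, adjusted p = 1.3e-05). The differences were 0.16 ± 0.17 in NSCL61 (adjusted p = 0.511) and 0.36 ± 0.17 in ASTL61 (adjusted p = 0.72), and neither passed. Before HRasL61, OPC were lower than NSC by a log2 difference of -1.75 ± 0.17 (adjusted p = 2.78e-05) and lower than AST by -1.36 ± 0.17 (adjusted p = 0.000158). OPCL61 differed from NSCL61 by 0.19 ± 0.17 (95% interval -0.21 to 0.58, adjusted p = 0.479). Another Nfe2l2 probe set, 1457117_at, lay between 3.14 and 4.52 in all 12 arrays, did not pass the filter and gives no test.

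Akr1b8, an aldo-keto reductase of mouse that reduces reactive aldehydes, had the widest range of the 10. Its signal (1448894_at) was 10.91 and 11.11 in OPCL61, against 3.96 and 4.18 in OPC. In NSCL61 it was 11.32 and 11.12, against 10.24 and 9.93 in NSC. In ASTL61 it was 10.61 and 10.99, against 10.53 and 10.48 in AST. Both OPC arrays lay under 5.183 while the other 10 arrays lay near 10 or above, so the OPC signal may be background and differences from it may be lower bounds. Akr1b8 rose by 6.94 ± 0.17 in OPCL61, a 123-fold difference (limma, adjusted p = 1.23e-08). It rose by 1.14 ± 0.17 in NSCL61 (adjusted p = 0.000723), and the difference of 0.30 ± 0.17 in ASTL61 did not pass (adjusted p = 0.76). OPC were lower than NSC by -6.02 ± 0.17 (adjusted p = 8.98e-09) and lower than AST by -6.43 ± 0.17 (adjusted p = 7.76e-09). The 3 lines lay within 0.43 of each other in their means, and none of their pairs passed.

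Nqo1 is the quinone reductase most used as a readout of NRF2. Its signal was 5.42 and 5.57 in OPCL61, against 4.88 and 4.70 in OPC, and both groups lay near the median of all values. In NSCL61 it was 8.41 and 7.27, against 9.34 and 8.32 in NSC, and the groups overlapped. In ASTL61 it was 7.83 and 9.26, against 7.52 and 7.58 in AST. None of these passed: the differences were 0.70 ± 0.50 in OPCL61 (limma, adjusted p = 0.276), -0.99 ± 0.50 in NSCL61 (adjusted p = 0.152) and 1.00 ± 0.50 in ASTL61 (adjusted p = 0.728). Both OPC arrays lay under 5.183, so differences from OPC may be lower bounds. Among parents, OPC were lower than NSC by -4.04 ± 0.50 (adjusted p = 0.000117) and lower than AST by -2.76 ± 0.50 (adjusted p = 0.00129). Among lines, OPCL61 was lower than NSCL61 by -2.35 ± 0.50 (adjusted p = 0.00779) and lower than ASTL61 by -3.05 ± 0.50 (adjusted p = 0.00138). Without NSCL61 replicate 1 the difference between OPCL61 and NSCL61 was -1.77 and did not pass (adjusted p = 0.0697). In a model of only the 4 arrays compared, the same difference of 0.70 between OPCL61 and OPC passed, with an adjusted p of 0.0176.

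Hmox1, haem oxygenase 1, opens the haem ring and releases iron. Its signal was 10.37 and 9.11 in OPCL61, against 8.10 and 7.96 in OPC. It was 9.40 and 8.74 in NSCL61, against 10.50 and 10.29 in NSC, and 9.68 and 10.71 in ASTL61, against 10.14 and 10.28 in AST. The OPCL61 arrays lay above OPC but 1.26 apart, the NSCL61 arrays lay below NSC, and the ASTL61 arrays fell on both sides of AST. Hmox1 rose by 1.71 ± 0.42 in OPCL61 (limma, adjusted p = 0.00822) and fell by 1.32 on the log2 scale in NSCL61 (SE 0.42, adjusted p = 0.034). In ASTL61 the difference was -0.01 ± 0.42 (adjusted p = 0.997). OPC were lower than NSC by -2.36 ± 0.42 (adjusted p = 0.00125) and lower than AST by -2.18 ± 0.42 (adjusted p = 0.00196). The rise in OPCL61 did not pass without its replicate 1 (1.08, adjusted p = 0.0533). The fall in NSCL61 did not pass in 7 of 23 alternatives, among them -0.99 without NSCL61 replicate 2 (adjusted p = 0.202) and -1.22 without NSC replicate 1 (adjusted p = 0.122). The rest were -1.43 without NSC replicate 2 (adjusted p = 0.0816), -1.65 without NSCL61 replicate 1 (adjusted p = 0.05 after rounding), and the unaltered -1.32 without OPC replicate 2 or either AST array, at adjusted p from 0.0501 to 0.0517.

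**Figure D2:**
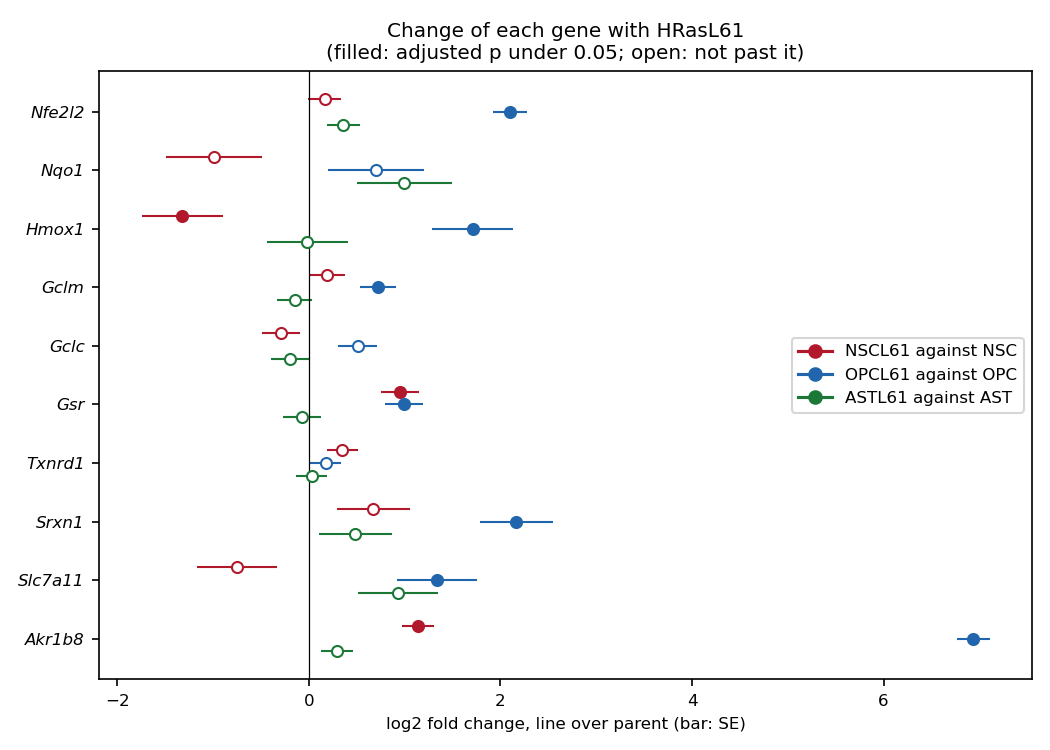
Log2 fold change of each gene in the 3 lines over their parents (horizontal axis), with bars of 1 standard error from limma. Filled points passed an adjusted p of 0.05 and open points did not. All 10 points of OPCL61 lie right of 0, with Akr1b8 at 6.94, and Hmox1 is the only filled point left of it.

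Slc7a11 is the cystine-importing subunit of the cystine/glutamate antiporter, which supplies cysteine for glutathione. Its signal (1443536_at) was 7.25 and 7.42 in OPCL61, against 6.21 and 5.79 in OPC. It was 6.24 and 5.11 in NSCL61, against 6.58 and 6.28 in NSC, and 6.60 and 7.77 in ASTL61, against 6.07 and 6.43 in AST. The 2 arrays of NSCL61 and of ASTL61 lay more than 1 log2 unit apart. Slc7a11 rose by 1.34 ± 0.42 in OPCL61 (limma, adjusted p = 0.0247). The differences were -0.75 ± 0.42 in NSCL61 (adjusted p = 0.192) and 0.94 ± 0.42 in ASTL61 (adjusted p = 0.684). The other probe set, 1420413_at, also rose in OPCL61, by 1.76 ± 0.47 (adjusted p = 0.0115 over 23080 probe sets), but in NSCL61 it had the opposite sign, 0.57 ± 0.47 (adjusted p = 0.385), so the data give no direction for Slc7a11 there. The rise in OPCL61 did not pass with array weights (1.34, adjusted p = 0.0747) or without OPC replicate 2 (1.13, adjusted p = 0.134). It also did not pass without OPCL61 replicate 1 (1.42, adjusted p = 0.0593) or replicate 2 (1.25, adjusted p = 0.0968). Slc7a11 differed little between parents, with OPC against AST at -0.25 ± 0.42 (adjusted p = 0.639), and was the only member that did not pass in that comparison.

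Gclc and Gclm are the catalytic and modifier subunits of glutamate-cysteine ligase, the first and rate-limiting step of glutathione synthesis. Gclc had 9.80 and 9.37 in OPCL61, against 9.24 and 8.90 in OPC. It had 9.16 and 8.78 in NSCL61, against 9.45 and 9.08 in NSC, and 9.46 and 9.40 in ASTL61, against 9.61 and 9.65 in AST. Its group means spanned 0.65 in all, the narrowest range of the 10 genes, and its differences of 0.51 ± 0.20 in OPCL61 (limma, adjusted p = 0.0612), -0.29 ± 0.20 in NSCL61 (adjusted p = 0.294) and -0.20 ± 0.20 in ASTL61 (adjusted p = 0.87) did not pass. A further Gclc probe set gave 0.37, -0.29 and -0.13 in the same order.

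Gclm had 10.17 and 10.04 in OPCL61, against 9.54 and 9.22 in OPC. It had 10.12 and 9.85 in NSCL61, against 9.56 and 10.03 in NSC, and 10.76 and 10.59 in ASTL61, against 10.73 and 10.92 in AST. By this probe set, 1418627_at, OPC lay lowest and both astrocyte groups highest. Gclm rose by 0.72 ± 0.18 in OPCL61 (limma, adjusted p = 0.00962). Its other probe set, 1439050_at, had 8.15 and 7.67 in OPCL61, against 8.48 and 8.53 in OPC, a difference of -0.59 ± 0.23 that did not pass (adjusted p = 0.0536). By 1439050_at the OPC mean of 8.50 lay above those of OPCL61 (7.91), NSC (7.99) and NSCL61 (7.48), so the order of OPC depends on the probe set. The mean of both gave 0.07 with an adjusted p of 0.801, so the rise rests on 1 of 2 probe sets that point opposite ways. It also did not pass without OPC replicate 2 (0.56, adjusted p = 0.079). The differences were 0.19 ± 0.18 in NSCL61 (adjusted p = 0.467) and -0.15 ± 0.18 in ASTL61 (adjusted p = 0.896).

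Gsr, glutathione reductase, turns oxidised glutathione back to its reduced form. Its signal (1421816_at) was 8.89 and 9.34 in OPCL61, against 8.40 and 7.85 in OPC. It was 8.92 and 8.74 in NSCL61, against 7.78 and 7.97 in NSC, and 9.16 and 9.28 in ASTL61, against 9.28 and 9.30 in AST. Both lines that moved came close to the level of AST, which was already high. Gsr rose by 1.00 ± 0.20 in OPCL61 (limma, adjusted p = 0.00279) and by 0.95 ± 0.20 in NSCL61 (adjusted p = 0.00502), and was at -0.07 ± 0.20 in ASTL61 (adjusted p = 0.964). A further Gsr probe set rose by 1.08 in OPCL61 and by 1.02 in NSCL61, both past the test over probe sets. AST were higher than NSC by 1.41 ± 0.20 (adjusted p = 0.00101), while OPC and NSC differed by 0.25 ± 0.20 (adjusted p = 0.335).

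Txnrd1, cytosolic thioredoxin reductase, and Srxn1, sulfiredoxin, which repairs over-oxidised peroxiredoxins, serve the thiol arm of the system. Txnrd1 had 11.12 and 11.09 in OPCL61, against 11.02 and 10.84 in OPC. It had 11.22 and 10.94 in NSCL61, against 10.91 and 10.56 in NSC, and 11.30 and 11.59 in ASTL61, against 11.43 and 11.40 in AST. Its group means spanned 0.71, and no line differed from its parent by the test: 0.17 ± 0.16 in OPCL61 (limma, adjusted p = 0.401), 0.35 ± 0.16 in NSCL61 (adjusted p = 0.118) and 0.03 ± 0.16 in ASTL61 (adjusted p = 0.987). Both further Txnrd1 probe sets gave differences of 0.24 to 0.26 in OPCL61 and 0.28 to 0.41 in NSCL61, and neither passed.

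Srxn1 had 8.64 and 8.53 in OPCL61, against 6.69 and 6.15 in OPC. It had 9.75 and 8.88 in NSCL61, against 8.89 and 8.39 in NSC, and 8.42 and 9.53 in ASTL61, against 8.45 and 8.53 in AST. Both OPC arrays lay under the other 10, which ran from 8.39 to 9.75, and the OPCL61 arrays lay under those of NSCL61. Srxn1 rose by 2.17 ± 0.38 in OPCL61, 4.49-fold (limma, adjusted p = 0.00127). The differences of 0.67 ± 0.38 in NSCL61 (adjusted p = 0.2) and 0.49 ± 0.38 in ASTL61 (adjusted p = 0.828) did not pass. All 3 of its further probe sets also passed in OPCL61, with rises of 2.04, 1.91 and 0.40. OPC were lower than NSC by -2.22 ± 0.38 (adjusted p = 0.000978) and lower than AST by -2.07 ± 0.38 (adjusted p = 0.00146).

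The parents were compared to show where the lines started. In OPC against NSC, 0 genes were higher and 5 lower: Akr1b8, Nqo1, Hmox1, Srxn1 and Nfe2l2, each with the values above, where 51.5% of all genes passed and 24.3% were lower. In OPC against AST, 9 were lower and 0 higher, all but Slc7a11, where 51.7% of all genes passed and 25.6% were lower. The smallest of these differences were Txnrd1 at -0.49 ± 0.16 (limma, adjusted p = 0.0289) and Gclc at -0.55 ± 0.20 (adjusted p = 0.0424). In AST against NSC, 3 were higher and 0 lower, where 30.4% of all genes passed and 15.4% were higher. They were Gsr, Gclm by 1.03 ± 0.18 (adjusted p = 0.0032) and Txnrd1 by 0.68 ± 0.16 (adjusted p = 0.0111). Median differences of the 10 were -1.09 for OPC against NSC, -1.40 for OPC against AST and 0.11 for AST against NSC. Without OPC replicate 2, Gclc (-0.38, adjusted p = 0.239) and Txnrd1 (-0.40, adjusted p = 0.15) did not pass against AST. The same held without AST replicate 1, at -0.57 and -0.47, and without AST replicate 2, at -0.54 and -0.50. Gclc also did not pass by the mean of its probe sets (-0.44, adjusted p = 0.0847) or without either ASTL61 array (adjusted p from 0.0547 to 0.0548). Txnrd1 between AST and NSC did not pass without NSC replicate 2 (0.51), AST replicate 1 (0.67) or AST replicate 2 (0.70), with adjusted p from 0.055 to 0.0733. These comparisons share the OPC arrays with the line comparison, so the low OPC level that the OPCL61 rises start from and the parental differences are the same measurement.

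The lines were also compared with each other. In OPCL61 against NSCL61, Slc7a11 was higher by 1.66 ± 0.42 (limma, adjusted p = 0.017) and Gclc by 0.61 ± 0.20 (adjusted p = 0.05 after rounding), and Nqo1 was lower, 3 of 10 where 26.7% of all genes passed. In ASTL61 against NSCL61, Slc7a11 was higher by 1.51 ± 0.42 (adjusted p = 0.021) and Gclm by 0.69 ± 0.18 (adjusted p = 0.0182), 2 of 10 where 32.7% passed. In OPCL61 against ASTL61, Nqo1 and Gclm were lower, Gclm by -0.57 ± 0.18 (adjusted p = 0.0369), 2 of 10 where 36.6% passed. These shares are near or under the background. Slc7a11 did not pass without NSCL61 replicate 2, at 1.09 in OPCL61 (adjusted p = 0.128) and 0.94 in ASTL61 (adjusted p = 0.157), nor by the mean of its probe sets, at 1.09 (adjusted p = 0.0957) and 0.89 (adjusted p = 0.151). Without OPCL61 replicate 2 it was 1.57 in OPCL61 (adjusted p = 0.0703), and without ASTL61 replicate 2 it was 0.93 in ASTL61 (adjusted p = 0.137). Gclc between OPCL61 and NSCL61 did not pass in 16 of 23 alternatives, with values from 0.39 to 0.80, and Gclm between OPCL61 and ASTL61 did not in 9. Gclm between ASTL61 and NSCL61 did not pass without NSCL61 replicate 2 (0.56, adjusted p = 0.127) or ASTL61 replicate 1 (0.61, adjusted p = 0.0942).

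Whether the change with HRasL61 itself differed between cell types was tested as a difference of changes in the same model. The change in OPCL61 exceeded that in NSCL61 for 4 of 10 genes, where 37.9% of all genes passed and 18.0% did so upwards: Akr1b8, Hmox1, Slc7a11 and Nfe2l2. It exceeded that in ASTL61 for 6, where 35.4% passed and 17.1% upwards: Akr1b8, Nfe2l2, Hmox1, Srxn1, Gsr and Gclm. For Nfe2l2 the differences were 1.94 ± 0.25 against NSCL61 (limma, adjusted p = 0.000281) and 1.74 ± 0.25 against ASTL61 (adjusted p = 0.00071). Both passed in each of 23 alternatives, but the counts rest on single arrays. The 4 became 7 without NSCL61 replicate 1, and the 6 became 2 without OPC replicate 2 or AST replicate 2 and 3 without OPCL61 replicate 1 or ASTL61 replicate 1. The change in ASTL61 was smaller than that in NSCL61 for 2 genes, Gsr and Akr1b8, where 25.3% of all genes passed and 12.9% did so downwards. Without NSCL61 replicate 2 or either AST array 0 of the 10 passed there, and without NSC replicate 1 or ASTL61 replicate 2 1 did. For Srxn1 the difference between OPCL61 and NSCL61, 1.49 ± 0.54, did not pass (adjusted p = 0.0548), nor did that for Gclc, 0.80 ± 0.28 (adjusted p = 0.0504). The Srxn1 difference passed in 5 of 23 alternatives and the Gclc difference in 9, among them the replicate block (adjusted p = 0.0154).

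In ASTL61 and in NSCL61, but not in every group, the 2 arrays differed most for the same few genes. ASTL61 replicate 2 stood above replicate 1 for Nqo1 by 1.44, for Slc7a11 by 1.17, for Srxn1 by 1.12 and for Hmox1 by 1.03. NSCL61 replicate 1 was the higher array for 10 of 10 genes, with gaps of 1.14 for Nqo1, 1.13 for Slc7a11, 0.87 for Srxn1 and 0.66 for Hmox1. OPC replicate 1 was higher for 9 of 10. How many of all genes were higher in the same array was not counted. Array medians of replicates 1 and 2 were 5.166 and 5.182 in NSCL61, 5.206 and 5.211 in OPC and 5.157 and 5.190 in ASTL61. Whether the shared direction is particular to these genes was not tested. Over all genes the SD of the difference between a group's arrays was 0.372 in ASTL61, 0.193 in NSCL61 and 0.282 in OPC. Differences between the 3′ and 5′ probe sets of actin, a measure of RNA quality, lay between 0.107 and 0.281 in all 12 arrays. The signal of 18S ribosomal RNA, read near its 5′ end, was 8.06 and 11.67 in NSCL61, against 7.91 and 12.13 in NSC. It was 9.48 and 8.69 in OPCL61, against 8.71 and 12.59 in OPC, and 10.29 and 8.72 in ASTL61, against 8.42 and 9.06 in AST. The array with less 18S was the higher one for most of the 10 genes in NSCL61, NSC, OPC and ASTL61, and the array with more 18S was in OPCL61 (6 of 10) and AST (7 of 10). Its part in these gaps was not tested.

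**Figure D3:**
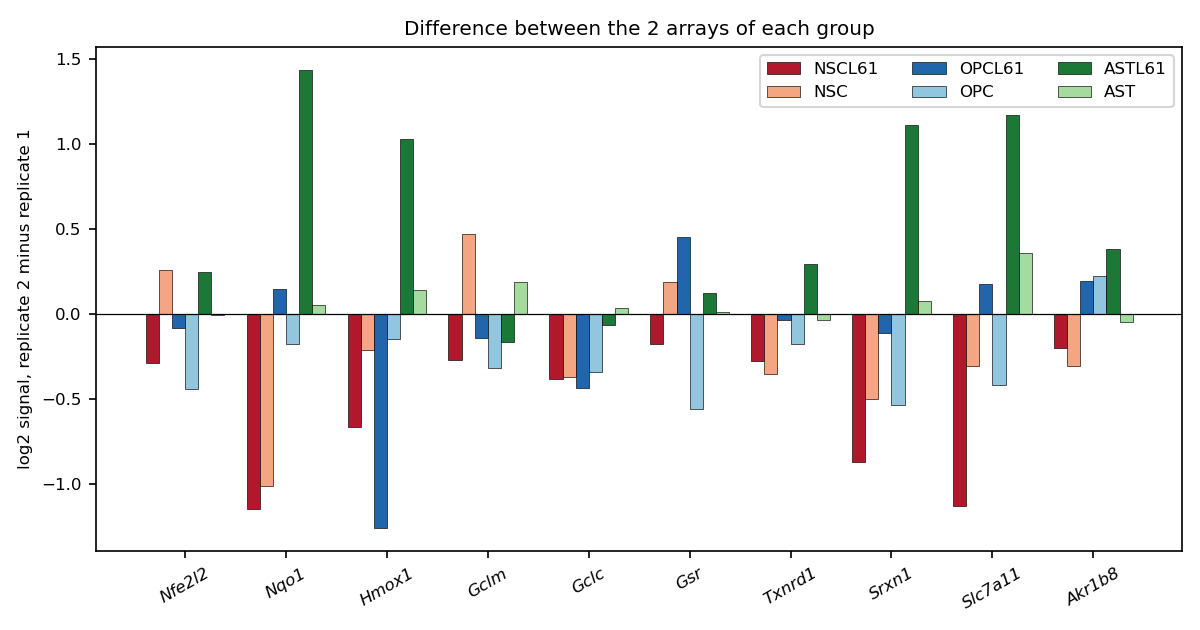
Difference between replicate 2 and replicate 1 (log2 signal, vertical axis) for each gene in each group, with each line left of its parent. Nqo1, Hmox1, Srxn1 and Slc7a11 have gaps over 1 in ASTL61, and the gaps of NSCL61 all lie below 0.

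Genes with the pattern most like Nfe2l2 were sought among the other 12834 tested by the root mean square (RMS) difference over the 6 group means, after each gene's own mean was subtracted. Nearest were Ier5, an immediate early response gene, at 0.0496, Sdc1, the heparan sulfate proteoglycan syndecan 1, at 0.123 and Tmem120a at 0.132. Ier5 had means of 10.21 in OPCL61 against 8.21 in OPC, 10.13 in NSCL61 against 9.92 in NSC and 9.81 in ASTL61 against 9.55 in AST. For Akr1b8, nearest were Tes (testin) at 0.3, the actin-capping protein Capg at 0.344 and annexin A2 (Anxa2) at 0.38. Capg had 9.66 in OPCL61 against 3.40 in OPC, and Anxa2 had 13.15 against 6.92. Each of these 6 genes is lowest in OPC, which follows from the search, since Nfe2l2 and Akr1b8 are lowest there.

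Counts in the 8 related lists are read against the 48.5% of all genes that passed in OPCL61 and the 37.8% that passed in NSCL61. These lists too were chosen with earlier results of these data known, so shares above or below the background are descriptive. Of 11 regulators and partners of NRF2 tested, 6 rose and 2 fell in OPCL61, a share above 48.5%. In NSCL61 3 rose and 0 fell, a share below 37.8%, and 0 passed in ASTL61. Their median change was 0.44 in OPCL61, 0.09 in NSCL61 and 0.05 in ASTL61, against 0.05, 0.04 and 0.00132 over all genes. Maff, a small MAF protein that dimerises with NRF2, had 8.17 and 7.98 in OPCL61, against 5.17 and 5.78 in OPC, a rise of 2.60 ± 0.33 (limma, adjusted p = 0.00018). In NSCL61 it had 9.15 and 9.05, against 7.33 and 7.30 in NSC, a rise of 1.78 ± 0.33 (adjusted p = 0.00251). Mafk, another small MAF, rose by 0.51 ± 0.16 in NSCL61 (adjusted p = 0.0321), a call lost without any 1 of the 4 arrays compared, at 0.45 to 0.57. Sqstm1, the autophagy receptor p62, which binds KEAP1 and is itself a target, had 12.18 and 12.02 in OPCL61, against 10.86 and 10.71 in OPC, a rise of 1.32 ± 0.18 (adjusted p = 3e-04). Chosen after their values were seen, Keap1 was at 0.08 ± 0.11 in OPCL61 (adjusted p = 0.57), and Bach1, a repressor that competes for the same elements, fell by 1.08 on the log2 scale there (adjusted p = 0.00033).

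Further genes of glutathione synthesis and transfer passed in both directions. Of 13 tested, 6 rose and 3 fell in OPCL61 (median 0.17), above the 48.5% of all genes. In NSCL61 3 rose and 3 fell (median -0.21), near the 37.8%, and 0 passed in ASTL61 (median 0.35). Gstp1, a glutathione transferase, had 6.28 and 6.66 in OPCL61, against 10.71 and 11.15 in OPC, and fell by 4.46 (log2, SE 0.18; limma, adjusted p = 1.61e-07). Gsta4, the transferase for 4-hydroxynonenal, had 6.70 and 6.70 in OPCL61, against 4.62 and 4.53 in OPC, and rose by 2.13 ± 0.31 (adjusted p = 0.000412). Both OPC arrays lay under 5.183, so this difference may be a lower bound. In NSCL61 Gsta4 instead had 7.26 and 6.41, against 9.50 and 9.16 in NSC, and fell by 2.50 (SE 0.31, adjusted p = 0.000236). Ggct, a cyclotransferase of the gamma-glutamyl cycle, had 9.37 and 9.27 in NSCL61, against 6.93 and 6.18 in NSC, and rose by 2.76 ± 0.30 (adjusted p = 0.000109), or by 1.20 by the mean of its probe sets.

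The thioredoxin and peroxiredoxin list had 1 rise and 4 falls among 9 tested in OPCL61 (median -0.19), and 1 rise and 3 falls in NSCL61 (median -0.04), both near the shares of all genes, 48.5% and 37.8%. Sesn1, a sestrin known as a p53 target, had 7.16 and 6.31 in OPCL61, against 8.59 and 8.42 in OPC, and fell by 1.77 (log2, SE 0.28; limma, adjusted p = 0.000668). In NSCL61 it had 6.48 and 6.13, against 8.09 and 8.57 in NSC, and fell by 2.03 (SE 0.28, adjusted p = 0.000457). Sesn2, its stress-induced relative, fell by 1.16 in OPCL61 (SE 0.24, adjusted p = 0.00316). Txnip, the thioredoxin-binding protein, had 6.67 and 6.16 in NSCL61, against 9.50 and 8.55 in NSC, and fell by 2.61 (SE 0.65, adjusted p = 0.011), not past the test without NSCL61 replicate 2 (-2.36) or NSC replicate 1 (-2.13). Among 7 enzymes that supply NADPH, 1 rose and 2 fell in OPCL61 (median -0.20), and 1 rose and 3 fell in NSCL61 (median -0.24), a share near the 48.5% of all genes in OPCL61 and above the 37.8% in NSCL61. Idh1, cytosolic isocitrate dehydrogenase, fell by 1.04 in OPCL61 (SE 0.27, adjusted p = 0.0104; -0.69 and not past the test without OPCL61 replicate 1) and by 1.30 in NSCL61 (SE 0.27, adjusted p = 0.00455). Taldo1, transaldolase of the pentose phosphate pathway, rose by 1.18 ± 0.12 in NSCL61 (adjusted p = 7.72e-05), with 11.34 and 11.25, against 10.23 and 10.01 in NSC. Idh2, the mitochondrial form, rose by 0.57 ± 0.15 in OPCL61 (adjusted p = 0.0117), but not past the test without OPCL61 replicate 2 (0.41), without OPC replicate 2 (0.55) or by the mean of its probe sets (0.36).

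In the haem and iron list, 2 of 7 rose and 0 fell in OPCL61 (median 0.41), and 1 rose and 2 fell in NSCL61 (median 0.12), a share under the 48.5% of all genes in OPCL61 and near the 37.8% in NSCL61. Fth1, ferritin heavy chain, rose by 0.73 ± 0.18 in OPCL61 (limma, adjusted p = 0.00829; 0.47 and not past the test without OPC replicate 2). Blvra, biliverdin reductase, rose by 0.62 ± 0.16 there (adjusted p = 0.00884), but not past the test without OPCL61 replicate 2 (0.46) or OPC replicate 2 (0.54). Tfrc, the transferrin receptor, had 11.67 and 11.77 in NSCL61, against 10.36 and 9.88 in NSC, a rise of 1.60 ± 0.19 (adjusted p = 0.00016). Slc40a1, the iron exporter ferroportin, fell by 1.26 in NSCL61 (SE 0.23, adjusted p = 0.00239), and by 0.50 without NSC replicate 1, which did not pass. The detoxification list had 2 rises and 4 falls of 10 in OPCL61 (median -0.62) and 4 rises and 2 falls in NSCL61 (median 0.30), both above the shares of all genes, 48.5% and 37.8%. Aldh3a1, an aldehyde dehydrogenase, had 5.87 and 5.97 in OPCL61, against 3.27 and 2.91 in OPC, a rise of 2.83 ± 0.53 (adjusted p = 0.00179). In NSCL61 it rose by 2.43 ± 0.53 (adjusted p = 0.00593), and by 2.08 without NSCL61 replicate 1, which did not pass. OPC and NSC lay under 5.183, so their signal may be background and these differences lower bounds. Chosen after its values were seen, the Aldh3a1 mean of 8.32 in ASTL61, against 4.83 in AST, differed by 3.49 ± 0.53 and did not pass (adjusted p = 0.121). Ephx1, microsomal epoxide hydrolase, had 6.89 and 6.78 in OPCL61, against 9.54 and 9.23 in OPC, and fell by 2.55 (SE 0.24, adjusted p = 2.59e-05). Mgst1, a membrane-bound glutathione transferase, had 10.36 and 9.81 in NSCL61, against 7.73 and 3.16 in NSC, a rise of 4.64 ± 1.10 (adjusted p = 0.00891). The NSC arrays set its size: it was 2.35 without NSC replicate 2, whose signal may be background, and 6.92 without NSC replicate 1. It did not pass without NSCL61 replicate 1 (4.37, adjusted p = 0.0581) or in a model of only the 4 arrays compared (adjusted p = 0.063).

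Peroxide and superoxide enzymes outside the NRF2 set gave 2 rises and 2 falls of 8 in OPCL61 (median -0.20), and 1 rise and 2 falls in NSCL61 (median -0.08), both near the shares of all genes, 48.5% and 37.8%. Gpx8 rose by 1.79 ± 0.15 in OPCL61 (limma, adjusted p = 1.21e-05) and Gpx1, the main cytosolic glutathione peroxidase, by 1.37 ± 0.18 (adjusted p = 0.000245). Gpx7 had 5.73 and 5.52 in NSCL61, against 10.26 and 9.80 in NSC, and fell by 4.40 (log2, SE 0.24; adjusted p = 1.74e-06), and catalase (Cat) fell by 1.22 there (SE 0.19, adjusted p = 0.00108). ATF4, a stress factor that also drives Slc7a11, and its targets gave 3 rises and 0 falls of 14 in OPCL61 (median 0.20), and 0 rises and 8 falls in NSCL61 (median -0.65), a share under the 48.5% of all genes in OPCL61 and above the 37.8% in NSCL61. The pseudokinase Trib3 had 7.93 and 7.95 in OPCL61, against 6.18 and 6.78 in OPC, a rise of 1.45 ± 0.38 (adjusted p = 0.0108; 1.15 and not past the test without OPC replicate 1). In NSCL61 it had 7.49 and 7.45, against 9.55 and 10.65 in NSC, and fell by 2.63 (SE 0.38, adjusted p = 0.000618). Slc7a3, a cationic amino acid transporter, fell by 3.11 in NSCL61 (SE 0.30, adjusted p = 4.78e-05), and the stress factor Atf3 rose by 0.81 ± 0.13 in OPCL61 (adjusted p = 0.000781). In ASTL61, 0 members of any of the 8 lists passed.

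**Figure D4:**
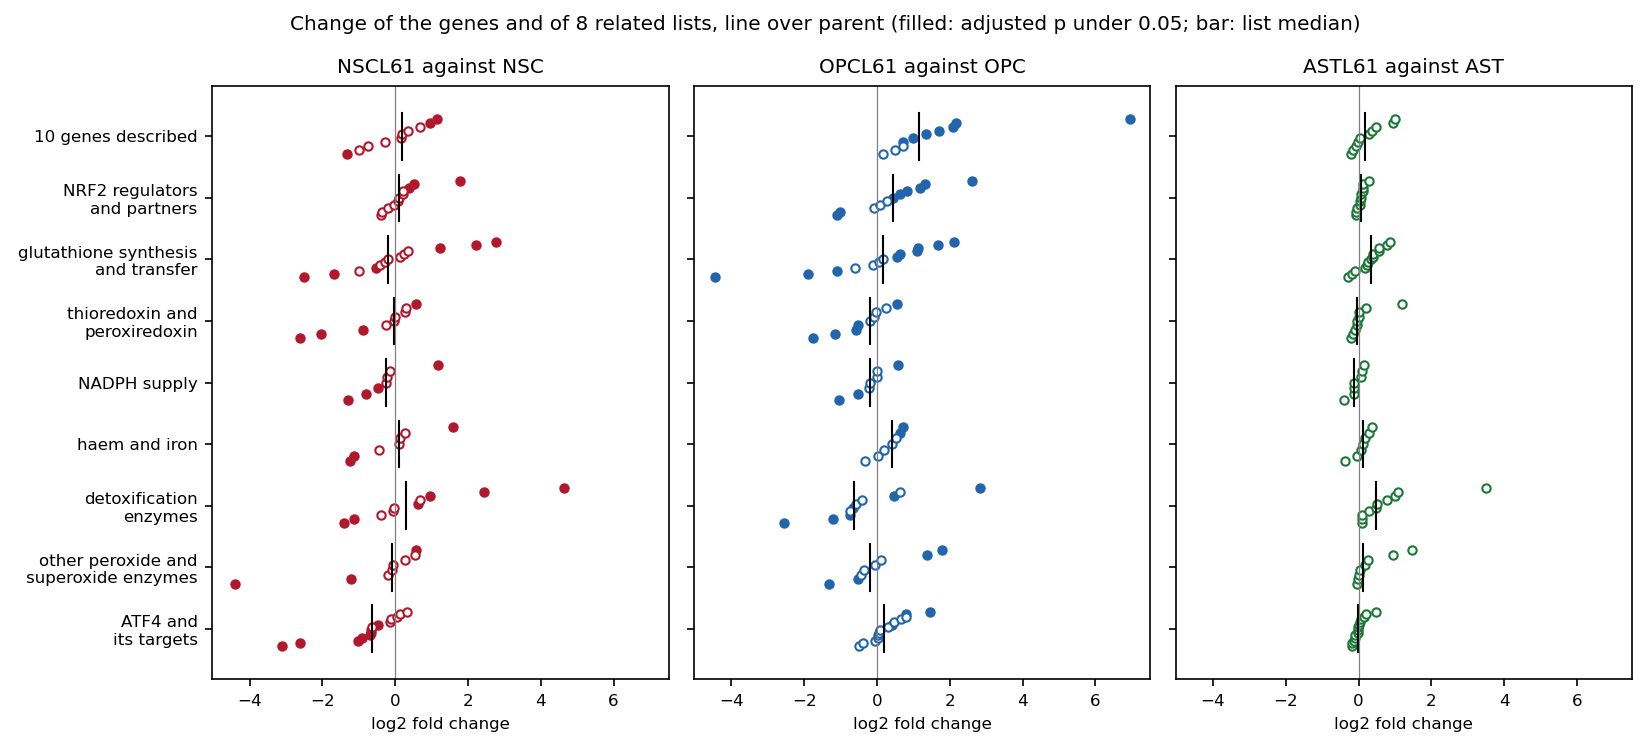
Log2 fold change of line over parent (horizontal axis) for the 10 genes and for 8 related lists, with a panel for each line. Points are genes, filled where the adjusted p is under 0.05, and bars are list medians. The bar of the 10 genes stands at 1.17 in OPCL61, above the bars of the 8 lists there, and at 0.18 in NSCL61 and 0.16 in ASTL61.

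Cell type markers moved with the same comparisons. Of 7 precursor markers, 6 fell and 0 rose in OPCL61, where 48.5% of all genes passed in either direction. The log2 of their summed unlogged signals, in which the brightest markers weigh most, lay between 10.04 and 10.63, against 14.78 to 15.01 in OPC. All further marker sums were taken in this way. Of 10 fibroblast and pericyte markers, 9 fell and 0 rose in NSCL61, where 37.8% of all genes passed in either direction. Their sum was 9.15 to 9.40, against 15.68 to 15.79 in NSC. NSC thus did not carry the marker profile of their label: 3 of 7 stem cell markers lay above 5.183 in each array, and the stem cell sum was 9.002 to 9.096, against 12.14 to 12.31 in NSCL61. All 7 precursor markers lay above 5.183 in OPC, and 4 to 5 of 8 astrocyte markers did in AST. In OPC, 5 to 7 of the 8 astrocyte markers did, so AST were not set apart by that list. The astrocyte sum was 11.798 to 11.927 in AST, against 12.181 to 12.305 in NSC and 12.359 to 12.522 in OPC. The stem cell sum was highest in OPC, at 14.061 to 14.217. Fibroblast and pericyte sums were 14.59 to 14.80 in ASTL61 and 14.22 to 14.71 in AST, and 8.59 to 9.28 in OPCL61 and 9.06 to 10.61 in OPC. Of 8 microglia and macrophage markers, 6 lay under 5.183 in every array. Cd68 was 7.31 and 6.62 in NSCL61, against 4.43 and 4.40 in NSC, and 7.86 and 7.26 in OPCL61, against 4.45 and 4.24 in OPC. The part of these cell type differences in the changes of the NRF2 genes was not tested. The transcripts of Hras and Trp53 were not analysed here.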

How the data were processed

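Total RNA of 12 mouse cell samples in 6 groups of 2, taken from the sample titles, was read on biotin-labelled expression arrays, 5 µg each, per the labels' protocols. The values are log2 signals per probe set as deposited by the authors. How they were background-corrected, summarised and normalised is not given in the sources used here. The table holds 45101 probe sets, 64 of them controls, from 2.139 to 14.33. The number of arrays limits the precision.

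Symbols came from the platform's probe table: 34945 of the deposited probe sets have 1 symbol and 932 have several, which were not used. A probe set was kept where a group mean lay above 5.183, and a gene was represented by its kept probe set with the highest mean. Not analysed here were Ggt1, Prdx5, Prdx6, G6pdx, Akr1b3, Akr1b7, Gsta1, Prdx1, Ftl1 and Ugt1a6a. The model in limma 3.58.1 (R 4.3.3) had 12 arrays and 6 group means, with 6 residual degrees of freedom (9.302 after moderation), 2-sided tests and Benjamini-Hochberg adjustment over 12835 genes, or over 23080 probe sets for a gene's further probe sets, at 0.05. There were 12 contrasts. The scripts were tested on simulated data. The members and the 8 related and 6 marker lists were chosen with earlier results of these data known. All 10 members are named; of each related list, up to 2 genes per line with the largest change past the test and no overlap of arrays, and exceptions are said to be chosen after their values were seen. Promoter windows came from RefSeq. Replicate numbers were not treated as pairs in the main model. Correlations of same-numbered deviations ran from -0.196 to 0.105 over 15 pairs of groups. Whether same-numbered arrays shared a batch is not stated and was not tested. Alternatives were quantile normalisation, median centring, no filter or one at 7.562, averaging a gene's probe sets, a fit over all probe sets, the replicate number as a block, array weights, a trended robust prior, only the arrays compared, a log2 change of at least 1, and each array left out.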

Additional observations from a re-analysis of the deposited data

Results flagged for a closer look

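The change with HRasL61 differed between cell types for several of the genes, by the test of that difference in limma's model of all 12 arrays. Of the 10, 4 passed between OPCL61 and NSCL61, 6 between OPCL61 and ASTL61 and 2 between ASTL61 and NSCL61. Of all genes, 37.9%, 35.4% and 25.3% passed in the same order. The 4 are near their share and the 2 are under theirs. Differences that involve OPCL61 use the OPC arrays, so they are not independent of the parental differences given above. Each value is the change in one line minus that in another, on the log2 scale ± SE, with a p-value adjusted over all genes.

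Between OPCL61 and NSCL61 the difference was 1.94 ± 0.25 for Nfe2l2 (adjusted p = 0.000281), 3.03 ± 0.60 for Hmox1 (adjusted p = 0.00348), 2.09 ± 0.59 for Slc7a11 (adjusted p = 0.0202) and 5.80 ± 0.24 for Akr1b8 (adjusted p = 4.17e-07). Hmox1 differs in sign, with both OPCL61 arrays above OPC and both NSCL61 arrays below NSC. The Slc7a11 difference did not pass by the mean of its probe sets (1.64, adjusted p = 0.0605), nor without NSCL61 replicate 2 (1.52), NSC replicate 1 (1.94), OPCL61 replicate 2 (2.00) or OPC replicate 2 (1.88).

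Between OPCL61 and ASTL61 it was 1.74 ± 0.25 for Nfe2l2 (adjusted p = 0.00071), 1.72 ± 0.60 for Hmox1 (adjusted p = 0.0496), 0.87 ± 0.26 for Gclm (adjusted p = 0.0284), 1.07 ± 0.28 for Gsr (adjusted p = 0.0175), 1.68 ± 0.54 for Srxn1 (adjusted p = 0.0374) and 6.64 ± 0.24 for Akr1b8 (adjusted p = 3.71e-07). The Hmox1 difference did not pass in 15 of 23 alternatives, where it ranged from 1.09 to 1.80. Srxn1 did not pass in 7, with 1.12 without ASTL61 replicate 1 and 1.41 without OPC replicate 2. Gclm did not pass in 6, with 0.23 by the mean of its probe sets. Gsr did not pass in 4, with 0.79 without OPC replicate 2.

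Between ASTL61 and NSCL61 it was -1.03 ± 0.28 for Gsr (adjusted p = 0.0275) and -0.84 ± 0.24 for Akr1b8 (adjusted p = 0.0301). Each did not pass in 7 of 23 alternatives. In all 3 contrasts the values for Akr1b8 that use OPC rest on a parent whose signal may be background.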

How the results depend on the processing

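Of 345 alternative counts, 301 stayed within 1.5 times the main count and 44 did not. A log2 change of at least 1 gave 2099 genes in NSCL61 against NSC and 2810 in OPCL61 against OPC. In ASTL61 against AST array weights gave 5 genes and the model of only the arrays compared gave 0. Between ASTL61 and NSCL61 1 of the 10 genes passed, in place of 2, with the filter at the 75th percentile, the mean of probe sets, only the arrays compared or a log2 change of at least 1. Between OPCL61 and ASTL61 1 passed with array weights, only the arrays compared or a log2 change of at least 1, and 1 for the change in ASTL61 minus that in NSCL61 with the last. With each array left out, genes past the test ran over 3004 to 5135 for NSCL61 against NSC, 4633 to 6299 for OPCL61 against OPC, 0 to 110 for ASTL61 against AST; the 110 came without ASTL61 replicate 1. The 10 genes gave 2 to 3 for NSCL61 against NSC, 5 to 7 for OPCL61 against OPC, 0 to 0 for ASTL61 against AST, 5 to 6 for OPC against NSC, 2 to 4 for AST against NSC, 7 to 9 for OPC against AST, 1 to 3 for OPCL61 against NSCL61, 0 to 3 for ASTL61 against NSCL61, 1 to 2 for OPCL61 against ASTL61, 3 to 7 for the change in OPCL61 minus that in NSCL61, 0 to 2 for the change in ASTL61 minus that in NSCL61, 2 to 5 for the change in OPCL61 minus that in ASTL61. With the replicate block, 8 of the 10 passed in OPCL61 against OPC, Gclc being added (0.51, adjusted p = 0.0187), 3 in NSCL61 against NSC and 0 in ASTL61 against AST. The numbers share no stated source, and the block changed no count of the 10 by over 1.5 times. Among 3482 alternative values of single genes, 35 in 23 results changed sign, none of them past the test in either setting, with sizes up to 0.50. Gclm by the mean of its probe sets gave -0.16 in NSCL61 against NSC and 0.051 in OPC against NSC. Txnrd1 in OPCL61 against NSCL61 gave -0.009 after quantile normalisation and -0.086 by the mean of probe sets. The others came from leaving out 1 array. In ASTL61 against NSCL61, values ran from -0.011 to 1.43 for Nqo1, -0.89 to 0.22 for Srxn1. In the change in OPCL61 minus the change in ASTL61, values ran from -1.01 to 0.42 for Nqo1, -0.0025 to 0.29 for Txnrd1, -0.18 to 0.99 for Slc7a11. In ASTL61 against AST, values ran from -0.53 to 0.50 for Hmox1, -0.12 to 0.18 for Txnrd1, -0.071 to 1.04 for Srxn1. In OPCL61 against ASTL61, values ran from -1.09 to 0.17 for Hmox1, -0.065 to 0.37 for Gclc, -0.33 to 0.13 for Gsr, -0.95 to 0.17 for Srxn1, -0.44 to 0.73 for Slc7a11. In NSCL61 against NSC, values ran from -0.047 to 0.43 for Gclm. In OPCL61 against NSCL61, values ran from -0.013 to 0.25 for Gclm, -0.12 to 0.16 for Txnrd1. In the change in ASTL61 minus the change in NSCL61, values ran from -0.096 to 0.29 for Gclc, -0.75 to 0.37 for Srxn1. In OPC against NSC, values ran from -0.031 to 0.52 for Gsr. In the change in OPCL61 minus the change in NSCL61, values ran from -0.24 to 0.32 for Gsr. In AST against NSC, values ran from -0.40 to 0.10 for Srxn1, -0.36 to 0.0019 for Slc7a11. The causes were not tested. With 2 arrays a group, signals under 5.183 and changes smaller than the gaps between arrays limit what can be told.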
